A study of Ovis aries with 16 samples.

Results

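The genes described here encode the enzymes that cut extracellular matrix and the proteins that hold those enzymes in check: the metalloproteinases MMP2 and MMP14, the plasminogen activators PLAU and PLAT, the urokinase receptor PLAUR, the metalloproteinase inhibitors TIMP1, TIMP2 and TIMP3, and the serine protease inhibitor SERPINE2. The 9 genes were taken as a set by name, and every probe set that the platform annotation ties to 1 of these symbols and to no other gene was used. The array names 9155 genes in this way, and the 9 had 14 probe sets of the 24016 tested, with 6 for the 4 proteases, 1 for the receptor and 7 for the 4 inhibitors. A probe set is a group of short probes that report on the same transcript, and here the probes were designed on cattle sequence. MMP14 and TIMP2 had 3 probe sets each, TIMP1 had 2 and the other genes had 1.

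Peripheral lung was studied in 16 lambs aged 3 days, 8 with a shunt and 8 controls, where each array was taken from its title as a separate lamb. In the shunt group a vascular graft sewn in before birth joined the ascending aorta to the main pulmonary artery, which raises blood flow through the lung as some congenital heart defects do. Control fetuses had a sham operation. Per the labels, surgery in utero took place 9 ± 6 days before term and delivery was spontaneous; they name no breed, sex or genetic change for either group. The samples are pieces of whole lung, so a lower level of a transcript can come from fewer cells of a type or from less RNA per cell, and these cannot be told apart.

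Matrix metalloproteinases are zinc enzymes made as inactive proenzymes. MMP14 sits in the cell membrane and activates MMP2, a secreted enzyme that degrades basement membrane collagen, and it does so in a complex in which TIMP2 serves as the bridge. The TIMPs bind the active enzymes and block them, and TIMP3 stays bound to the matrix. Urokinase (PLAU), which acts at the cell surface on its receptor PLAUR, and tissue plasminogen activator (PLAT), a product of endothelial cells, turn plasminogen into plasmin, and SERPINE2 (protease nexin 1) inhibits both. In a lung whose vessels are growing and whose alveoli are forming, such enzymes and inhibitors act together on the matrix around vessels and airspaces.

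The values are log2 levels, and a difference is the mean of shunt minus the mean of control with the standard error (SE) of a limma fit to all probe sets. A difference of 1 on this scale is a doubling, and p-values were adjusted by the Benjamini-Hochberg method over all 24016 probe sets at a threshold of 0.05. Any pair of arrays correlated at 0.980 to 0.995. The array of control replicate 2 stood furthest from the rest, with a mean correlation to the other arrays of 0.983, where every other array had at least 0.990. Array medians differed slightly between the groups, at 7.135 ± 0.009 in shunt and 7.158 ± 0.016 in control lungs (SD, n = 8 each, exact two-sided permutation p = 0.00078). Lung markers were among the brightest probe sets on the arrays, with the surfactant gene SFTPC at percentile 99.7, SFTPB at 99.0 and 91.0, the alveolar type 1 cell gene AGER at 96.6 and 93.9, and the endothelial gene PECAM1 at 99.1 and 95.4, all as ranks of mean level among probe sets.

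No member passed the threshold. Of the 14 probe sets 0 were called by limma, against 0.0708% of all probe sets (0.0666% higher and 0.00416% lower), and their adjusted p-values ran from 0.272 to 0.999. At an unadjusted p under 0.05, 3 of 14 were higher in shunt lungs, against 6.42% of all probe sets, and 0 were lower, against 7.32%. The 3 belong to only 2 genes, both inhibitors: both probe sets of TIMP1 and the 1 of SERPINE2. Among the brightest 25% of probe sets, where 9 of the 14 lie, the share higher at an unadjusted p under 0.05 was 11.1% and the share lower was 4.56%, so the background is itself tilted towards higher values at these levels. The groups overlapped for all 14 members, while 0.142% of all probe sets had groups that did not overlap.

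**Figure D1:**
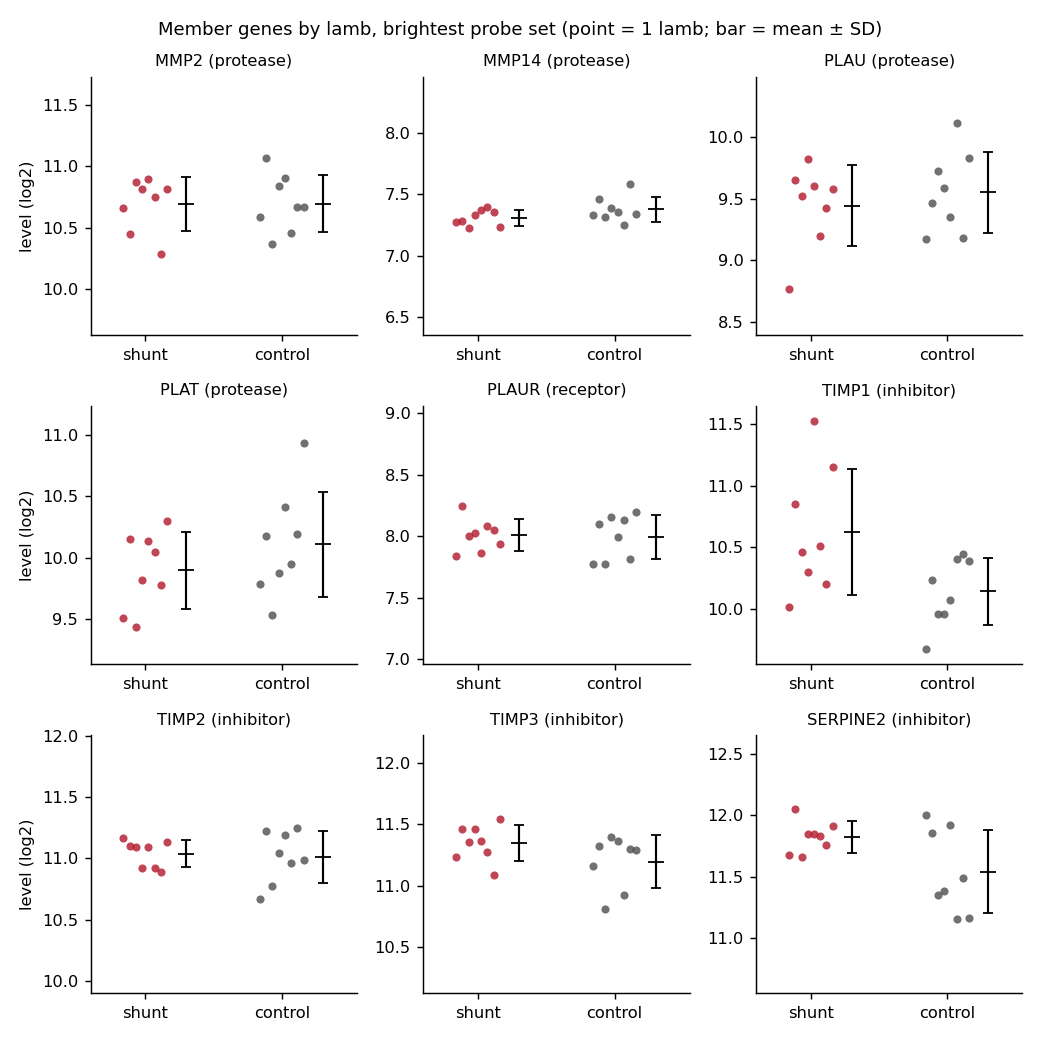
Log2 level of each member gene in every lamb (points, 8 shunt and 8 control) with mean and SD (bars), for the brightest probe set of each gene, on axes of equal length. TIMP1 reached 11.52 in a shunt lamb against at most 10.45 in controls, SERPINE2 spanned 11.66 to 12.05 in shunt and 11.16 to 11.999 in control lungs, and the groups overlapped in every panel.

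The gelatinase MMP2 was the member with the smallest difference. Its level ran from 10.29 through a median of 10.78 to 10.89 in shunt lungs, and from 10.37 through 10.67 to 11.07 in control lungs. The ranges lie over each other, and the highest control was replicate 2, the array that stood apart. The means were 10.69 ± 0.22 in shunt and 10.69 ± 0.23 in control lungs (SD, n = 8 each), a difference of -0.00039 ± 0.10 (SE, adjusted p = 0.999). The 95% confidence interval of the ratio runs from 0.860-fold to 1.16-fold, and a true ratio anywhere in that range is compatible with these values. Without control replicate 2 the difference was 0.05.

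MMP14, the membrane enzyme that activates MMP2, was dimmer. Its brightest probe set ran from 7.22 through a median of 7.30 to 7.39 in shunt lungs and from 7.25 through 7.34 to 7.58 in control lungs. Shunt replicates 3 and 8 lay below the lowest control and the other shunt lambs within the control range, and 1 of 8 exceeded the control mean. The difference was -0.07 ± 0.05 (SE, adjusted p = 0.543). It was -0.0397 without control replicate 7, the highest lamb, and -0.0411 after cyclic loess. The other probe sets of MMP14 were at percentiles 30.5 and 27.8 of level, where signal over background is unknown, and differed by -0.03 ± 0.06 and -0.17 ± 0.10 (adjusted p = 0.878 and 0.438). The dimmest of them read 6.67 in control replicate 2 and no more than 6.20 in the other controls, and without that array its difference was -0.08. The 3 probe sets did not follow each other from lamb to lamb, with correlations within groups of 0.02, -0.08 and -0.15 over 16 arrays, so they give no joint measure of MMP14.

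Urokinase and tissue plasminogen activator were both lower on average in shunt lungs, and neither passed. PLAU ran from 8.76 through a median of 9.55 to 9.82 in shunt lungs and from 9.17 through 9.53 to 10.12 in control lungs. The lowest value of all was shunt replicate 1 and the highest control replicate 6. The difference was -0.11 ± 0.15 (SE, adjusted p = 0.759). Leaving out shunt replicate 1 gave -0.01, and leaving out control replicate 6 gave -0.03. PLAT ran from 9.44 through 9.93 to 10.30 in shunt lungs and from 9.54 through 10.07 to 10.93 in control lungs, with control replicate 8 the highest. Its difference of -0.21 ± 0.17 (adjusted p = 0.574) was the largest among the proteases and was -0.10 without that control. For PLAT the 95% confidence interval reaches down to 0.678-fold and up to 1.10-fold.

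PLAUR, which concentrates urokinase at the cell surface, had nearly equal levels. It ran from 7.84 through a median of 8.01 to 8.25 in shunt lungs and from 7.77 through 8.05 to 8.20 in control lungs, a difference of 0.02 ± 0.08 (SE, adjusted p = 0.944). Within groups PLAUR went with PLAU at a correlation of 0.50 and with PLAT at 0.45 (16 arrays), given as a description.

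TIMP1, a secreted inhibitor that many cell types make in response to cytokines and injury, had the largest difference of the members. Its brighter probe set read 10.01, 10.85, 10.46, 10.30, 11.52, 10.51, 10.20 and 11.15 in shunt replicates 1 to 8. It read 9.67, 10.23, 9.95, 9.95, 10.07, 10.40, 10.45 and 10.39 in control replicates 1 to 8. Of the shunt lambs 5 of 8 lay above the highest control and 7 of 8 above the control mean, while shunt replicates 1, 4 and 7 lay within the control range. The means were 10.63 ± 0.51 in shunt and 10.14 ± 0.27 in control lungs (SD, n = 8 each). The difference was 0.49 ± 0.18 (SE), or 1.40-fold with a 95% confidence interval of 1.08 to 1.82, at an unadjusted p = 0.0150 and an adjusted p = 0.272 in limma, so it missed the threshold.

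The other TIMP1 probe set gave the same picture, from 9.81 through a median of 10.36 to 11.31 in shunt lungs and from 9.61 through 10.17 to 10.32 in control lungs, a difference of 0.43 ± 0.18 (SE, adjusted p = 0.317). The 2 probe sets followed each other closely, with a correlation within groups of 0.95 over 16 arrays, and they report on the same transcript, so they do not count as independent evidence. By an exact two-sided permutation test over the 12870 divisions of the lambs, the unadjusted p was 0.0301 for the brighter and 0.0536 for the dimmer probe set. The shunt lambs were more spread than the controls. The ratio of shunt to control SD was 1.87 for the brighter probe set, at percentile 96.8 of that ratio among all probe sets, with no test. Shunt replicate 5 was the highest lamb with both probe sets, and without it the difference of the brighter probe set was 0.36 (adjusted p = 0.426).

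SERPINE2, which blocks plasminogen activators and thrombin at the surface of fibroblasts and smooth muscle cells, was also higher on average. It read 11.67, 12.05, 11.66, 11.85, 11.85, 11.83, 11.76 and 11.91 in shunt replicates 1 to 8. It read 11.999, 11.86, 11.35, 11.38, 11.92, 11.16, 11.49 and 11.17 in control replicates 1 to 8. All 8 shunt lambs were above the control mean and 1 above the highest control, while 5 of 8 controls lay below the lowest shunt lamb. The other 3 controls, replicates 1, 2 and 5, were as high as the shunt lambs. The means were 11.82 ± 0.13 in shunt and 11.54 ± 0.34 in control lungs (SD, n = 8 each), a difference of 0.28 ± 0.12 (SE), or 1.22-fold with a 95% confidence interval of 1.03 to 1.44 (unadjusted p = 0.0259, adjusted p = 0.310 in limma, exact two-sided permutation p = 0.0469).

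The form of the SERPINE2 difference was thus unlike that of TIMP1. Its shunt lambs were close together, with a ratio of shunt to control SD of 0.379, at percentile 5.75 of all probe sets. Within groups TIMP1 and SERPINE2 correlated at -0.07 over 16 arrays. Shunt replicates 2 and 8 were nevertheless among the 3 highest shunt lambs for TIMP1 and the 2 highest for SERPINE2, while control replicate 1 was the lowest control for TIMP1 and the highest for SERPINE2. Leaving out control replicate 1 gave the largest SERPINE2 difference, 0.35 (adjusted p = 0.261), and leaving out control replicate 6 the smallest, 0.23 (adjusted p = 0.356).

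TIMP3 ran from 11.09 through a median of 11.36 to 11.54 in shunt lungs and from 10.81 through 11.29 to 11.40 in control lungs. The 2 lowest lambs were control replicates 3 and 6, and 3 of 8 shunt lambs lay above the highest control. The difference was 0.15 ± 0.09 (SE, adjusted p = 0.441), and 0.10 without control replicate 3.

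TIMP2 differed little between the groups with its brightest probe set, which ran from 10.89 through a median of 11.09 to 11.16 in shunt lungs and from 10.67 through 11.02 to 11.24 in control lungs. The difference was 0.03 ± 0.08 (SE, adjusted p = 0.904), with a 95% confidence interval from 0.906-fold to 1.15-fold. Its other probe sets differed by -0.08 ± 0.07 and 0.04 ± 0.15 (adjusted p = 0.636 and 0.917). Unlike those of MMP14, the TIMP2 probe sets went together from lamb to lamb, with correlations within groups of 0.73, 0.65 and 0.50 over 16 arrays.

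**Figure D2:**
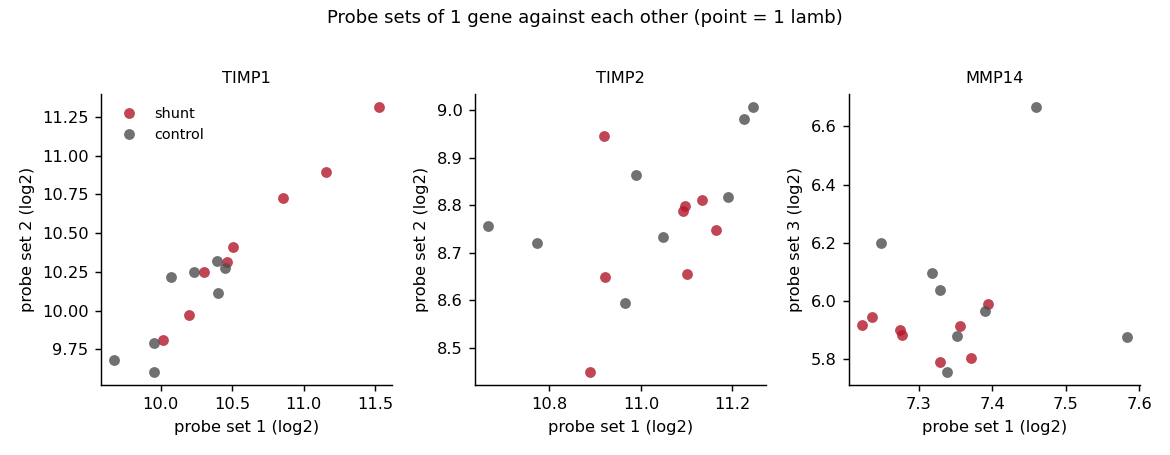
Log2 level with 1 probe set of a gene against another in the same lamb, with shunt and control lambs as separate colours. The TIMP1 probe sets lie along a line (correlation within groups 0.95), the TIMP2 probe sets less closely (0.50), and the brightest and dimmest MMP14 probe sets show no relation (0.02).

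Set side by side, the member protease probe sets and most member inhibitor probe sets lay on opposite sides of 0. All 6 protease probe sets had a lower mean in shunt lungs, none past the threshold, with a median difference of -0.09 and a range from -0.21 to -0.00039. Of the 7 inhibitor probe sets 6 had a higher mean, with a median of 0.15 and a range from -0.08 to 0.49. Over all probe sets the median was -0.01 and 44.9% were higher, and over the brightest 25% the median was 0.03 and 60.0% were higher. Of the inhibitor probe sets 6 of 7 are among that brightest part, and of the protease probe sets 3 of 6. With the brightest probe set of each gene alone the medians were -0.09 for 4 proteases and 0.22 for 4 inhibitors. These are descriptions of genes chosen by name, with earlier results of these data known, and with no test of the set. The contrast holds for the members only. Outside the set, all 3 probe sets of TIMP4, the remaining TIMP, had lower means in shunt lungs. Of the other matrix metalloproteinase probe sets 7 of 15 had higher means, and of the ADAM and ADAMTS probe sets 12 of 17. The signs of the members nearest 0 turned with the scaling: MMP2 was at 0.02 with each array centred on its median, the brightest TIMP2 probe set at -0.02 after a second quantile normalization and the middle MMP14 probe set at 0.01 after cyclic loess.

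**Figure D3:**
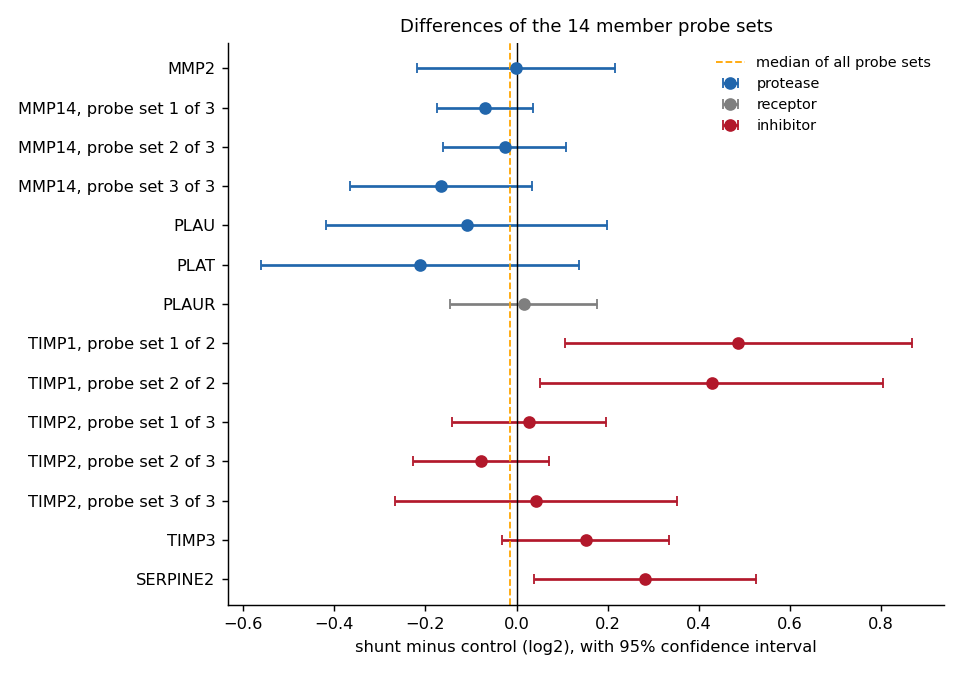
Difference of each of the 14 member probe sets, shunt minus control on the log2 scale, with its 95% confidence interval; the dashed line is the median of all probe sets, at -0.01. The intervals of both TIMP1 probe sets and of SERPINE2 lie above 0 before adjustment, and those of the 6 protease probe sets include 0.

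Protease and inhibitor were also compared within each lamb, as the log2 level of the protease minus that of the inhibitor on the same array. The level of such a difference has no meaning across probe sets, but its shift between groups shows whether both moved by the same amount. For 6 protease and inhibitor pairs that are known to act on each other, the shift was below 0 in all 6, without a test. Each shift equals the protease difference minus the inhibitor difference given above. The brightest probe sets of all 4 proteases were below 0 and those of all 4 inhibitors above 0. The sign of the 6 shifts was thus fixed in advance and adds no support, and the within-lamb values add only the spread between lambs. The pairs share genes and are not independent of each other.

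MMP2 minus TIMP1 ran from -0.63 through a median of 0.17 to 0.64 in shunt lungs and from 0.05 through 0.63 to 0.92 in control lungs, a shift of -0.49 ± 0.21 (SE). Of the shunt lambs 7 of 8 lay below the control mean and 3 of 8 below the lowest control. PLAT minus SERPINE2 ran from -2.22 through -1.94 to -1.61 in shunt lungs and from -2.21 through -1.50 to -0.24 in control lungs, a shift of -0.49 ± 0.22. Here all 8 shunt lambs were below the control mean and 1 was below the lowest control. Control replicate 8 was the highest, and without it the shift was -0.32. PLAU minus SERPINE2 shifted by -0.39 ± 0.24, and by -0.26 without control replicate 6. Of its shunt lambs 8 of 8 were below the control mean and 1 below the lowest control. The SD was 0.28 in shunt and 0.63 in control lungs.

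The pairs of TIMP2 with the enzymes of the MMP2 activation complex had the smallest shifts of the 6. MMP2 minus TIMP2 ran from -0.65 through a median of -0.27 to -0.10 in shunt lungs and from -0.58 through -0.30 to -0.08 in control lungs, a shift of -0.03 ± 0.10 (SE). MMP14 minus TIMP2 shifted by -0.10 ± 0.08, which was -0.0307 after quantile normalization again, -0.0326 after cyclic loess and -0.0530 without control replicate 1. The shift of MMP14 against TIMP3, the matrix-bound inhibitor, was as large against its SE as those of MMP2 minus TIMP1 and PLAT minus SERPINE2. It was -0.22 ± 0.09, with 4 of 8 shunt lambs below the lowest control. After quantile normalization again it was -0.155 and after cyclic loess -0.156. MMP2 minus TIMP1 was then at -0.486 and -0.489, and PLAT minus SERPINE2 at -0.495 and -0.486. Both MMP14 pairs rest on the brightest of 3 MMP14 probe sets, which did not follow each other.

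**Figure D4:**
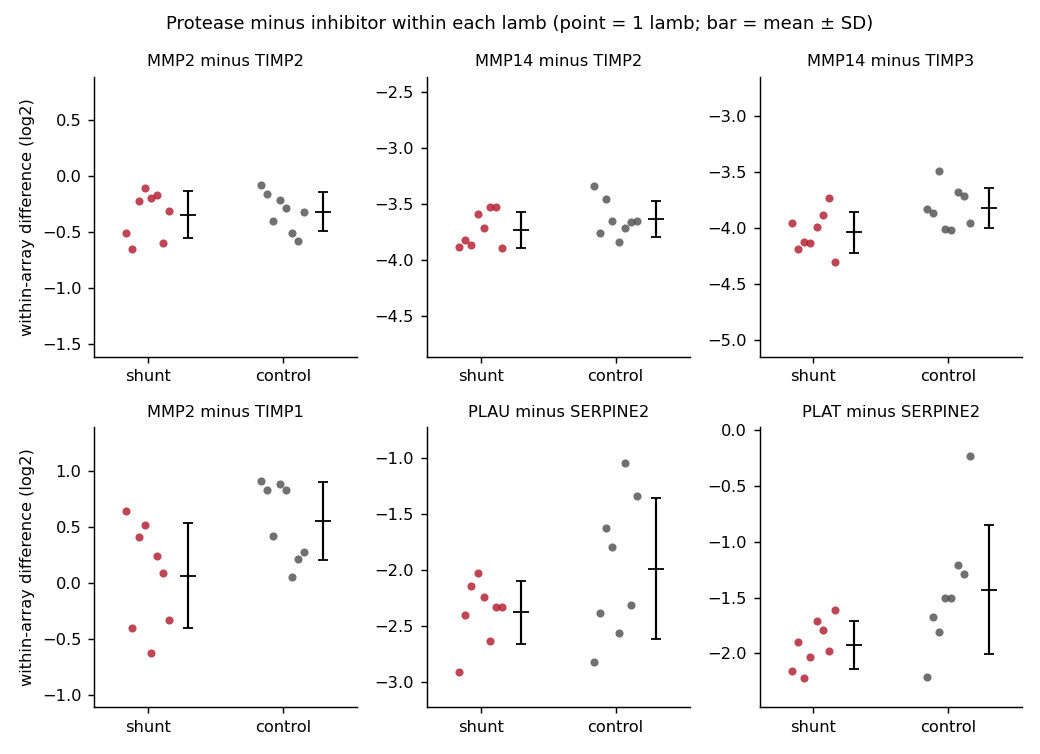
Log2 level of a protease minus that of an inhibitor on the same array, in every lamb (points) with mean and SD (bars), on axes of equal length. For MMP2 minus TIMP2 the groups overlap widely and 2 shunt lambs lie below the lowest control. For PLAT minus SERPINE2 and for PLAU minus SERPINE2, 8 of 8 shunt lambs lie below the control mean but only 1 of 8 below the lowest control.

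Within groups, MMP2, TIMP2 and TIMP3 had the highest correlations among the metalloproteinases and their inhibitors. MMP2 went with TIMP3 at a correlation of 0.72 and with TIMP2 at 0.55, and TIMP2 with TIMP3 at 0.57 (16 arrays, group means removed, brightest probe sets). The other 7 pairs of these genes ran from 0.14 for MMP14 with TIMP1 to 0.41 for TIMP1 with TIMP2, and MMP2 with MMP14 was at 0.23. PLAT went with TIMP1 at 0.62 and with TIMP3 at 0.56. PLAU went against MMP14 at -0.40 and against its inhibitor SERPINE2 at -0.38. The arrays share normalization and tissue sampling, and these correlations are descriptions over few lambs.

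The genes most like each member were found in the same way among 13278 probe sets of other genes with 1 symbol. For TIMP1 they were NOP10, a small nucleolar RNA protein (correlation 0.86), F13A1, the A subunit of coagulation factor XIII (0.81), and the cytokine IL6 (0.80). For PLAT they were ATP6V0E1 (0.86), GNL2 (0.83) and HAS2, which makes hyaluronan (0.83), and for MMP2 the growth hormone receptor GHR (0.85), the matrix proteoglycan OGN (0.85) and TMEM59 (0.85). PLAU was most like ECM1, an extracellular matrix glycoprotein (0.83), MRE11 (0.81) and NT5DC1 (0.76), and SERPINE2 was most like TARDBP (0.86), PYGL (0.82) and COX6C (0.82). F13A1 differed between the groups by 0.40 ± 0.17 (SE, adjusted p = 0.322), IL6 by 0.49 ± 0.49 and HAS2 by 0.69 ± 0.42 (adjusted p = 0.665 and 0.466), none past the threshold. The probe sets of NOP10 and COX6C were dim, at percentiles 17.6 and 21.0 of level, where signal over background is unknown. The highest correlations among so many probe sets over 16 arrays are large by selection.

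The rest of the matrix proteolysis machinery was read from 6 lists of other genes. The counts stand beside 6.42% higher and 7.32% lower of all probe sets at an unadjusted p under 0.05, and 11.1% and 4.56% of the brightest 25%. Of the other matrix metalloproteinases 8 of 21 listed genes were measured, with 15 probe sets, of which limma called 0. At an unadjusted p under 0.05, 1 was higher and 3 were lower. The median difference was -0.01. The probe sets of smallest p were those of the membrane enzymes MMP15 (-0.21 ± 0.06, SE) and MMP16 (-0.30 ± 0.11) and of MMP20, an enzyme of tooth enamel (0.19 ± 0.07), with adjusted p-values from 0.212 to 0.276. Another MMP15 probe set was at -0.22, and the other MMP16 probe sets were at -0.06 and 0.05. MMP15 and MMP20 were dim, at percentiles 11.3 and 12.6 of level.

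In the ADAM and ADAMTS families 17 probe sets of 11 genes had a median of 0.04, and limma called 0. At an unadjusted p under 0.05, 2 were higher and 1 was lower. The brightest probe set of ADAM9, a membrane-bound sheddase, was at 10.21 ± 0.15 in shunt and 9.87 ± 0.19 in control lungs (SD, n = 8 each). Its difference was 0.34 ± 0.08 (SE, adjusted p = 0.115). The other ADAM9 probe sets were at 0.18 ± 0.17 and 0.03 ± 0.12 (adjusted p = 0.645 and 0.923). ADAM12 was at 0.49 ± 0.18 (adjusted p = 0.265) and ADAMTS8 at -0.19 ± 0.08 (adjusted p = 0.331). Among 20 probe sets of 14 other genes of the plasminogen system the median was -0.02, and limma called 0. At an unadjusted p under 0.05, 1 was higher and 0 were lower. The thrombin receptor F2R was at 0.29 ± 0.13, plasminogen itself (PLG) at -0.13 ± 0.06 and thrombomodulin (THBD) at 0.14 ± 0.07, with adjusted p-values from 0.348 to 0.385.

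Other inhibitors and partners of matrix proteases had 37 probe sets of 19 genes with a median of 0.02. Limma called 0 of them, and at an unadjusted p under 0.05 there were 9 higher and 3 lower. The secreted serine protease HTRA1 was at 12.12 ± 0.26 in shunt and 11.73 ± 0.10 in control lungs (SD, n = 8 each), a difference of 0.39 ± 0.09 (SE, adjusted p = 0.115). Both probe sets of the integrin subunit ITGAV were higher on average, by 0.44 ± 0.11 and 0.26 ± 0.08 (adjusted p = 0.141 and 0.218). TIMP4, the remaining TIMP, chosen for mention after its values were seen, had 3 probe sets at -0.14, -0.08 and -0.08 (adjusted p from 0.446 to 0.788).

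Cathepsins and cystatins had 24 probe sets of 15 genes with a median of 0.0017, and limma called 0, while 1 lay above and 2 below 0 at an unadjusted p under 0.05. A probe set of the cysteine protease inhibitor CST3 was at 0.23 ± 0.07 (SE, adjusted p = 0.204). The brightest CST3 probe set was at 0.10 ± 0.10 (adjusted p = 0.658) and the remaining one at 0.10 ± 0.07 (adjusted p = 0.556). For cathepsin B (CTSB) 2 of the dimmer probe sets were at -0.15 ± 0.07 each, while the brightest was at 0.16 ± 0.08. Proteins that the member proteases can cut had 38 probe sets of 20 genes with a median of 0.07. Of them 30 had a higher mean, where 44.9% of all and 60.0% of the brightest 25% of probe sets did, and limma called 0. At an unadjusted p under 0.05, 7 were higher and 1 was lower. The 2 probe sets of COL4A1, a basement membrane collagen chain, were at 0.41 ± 0.09 and 0.22 ± 0.05 (adjusted p = 0.0971 and 0.115), and the brighter probe set of elastin (ELN) was at 0.48 ± 0.11 (adjusted p = 0.115), its dimmer one at -0.02 ± 0.10.

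**Figure D5:**
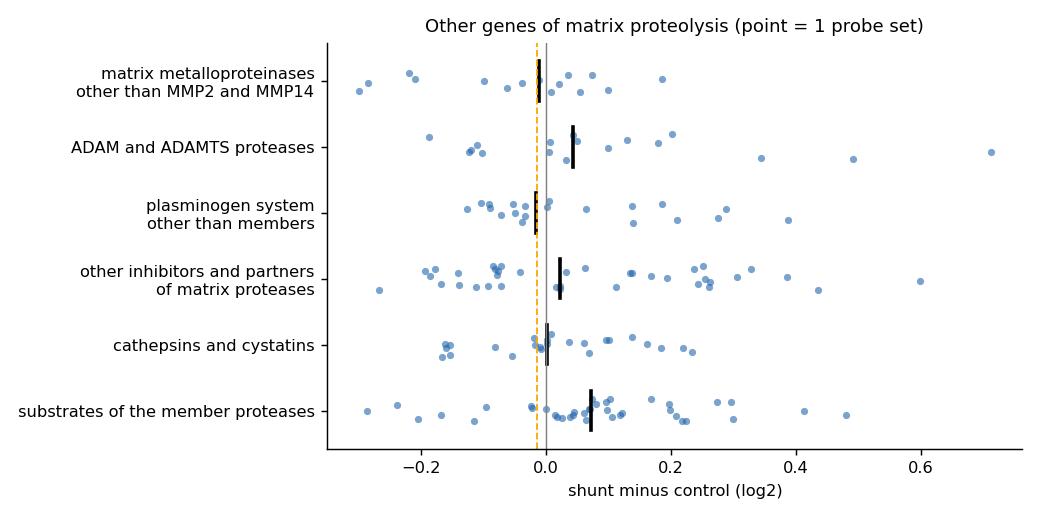
Difference of every probe set in 6 lists of other genes of matrix proteolysis, shunt minus control on the log2 scale, with the list median as a black bar and the median of all probe sets (-0.01) as a dashed line. The substrates have the highest median of the 6 lists, 0.07, and no probe set in the lists passed the threshold.

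Markers of cell types that make these proteins were measured on the same arrays. The mean level of 18 fibroblast probe sets (12 of 12 genes) ran from 9.80 to 10.35 in shunt and from 9.66 to 10.39 in control lungs, and that of 12 smooth muscle probe sets (10 of 10 genes) from 10.01 to 10.28 in shunt and from 9.86 to 10.30 in control lungs. The mean of 18 endothelial probe sets (12 of 14 genes) ran from 8.52 to 8.77 in shunt and from 8.42 to 8.60 in control lungs. Smooth muscle markers averaged 10.16 ± 0.11 in shunt and 10.02 ± 0.15 in control lungs, and endothelial markers 8.62 ± 0.08 and 8.50 ± 0.07 (SD). Higher means were seen in 12 of 18 fibroblast, 9 of 12 smooth muscle and 13 of 18 endothelial probe sets. At an unadjusted p under 0.05, 2, 5 and 7 of these were higher and 0 were lower in each list. Over all probe sets 44.9% had a higher mean, and at that p 6.42% were higher and 7.32% lower. In the brightest 25% of probe sets these shares were 60.0%, 11.1% and 4.56%. The fibroblast counts lay near the shares of the brightest 25%. Called probe sets numbered 1 in the fibroblast list (SCARA5), 1 in the endothelial list (PECAM1) and 0 in the smooth muscle list. Over all probe sets 0.0708% were called. Macrophage markers (12 probe sets, 9 of 12 genes) ran from 8.21 to 8.69 in shunt and from 8.05 to 8.47 in control lungs, and neutrophil markers (10 probe sets, 7 of 10 genes) from 5.95 to 6.29 in shunt and from 6.13 to 6.54 in control lungs. Neutrophil markers averaged 6.10 ± 0.13 in shunt and 6.24 ± 0.13 in control lungs (SD, n = 8 each). Of them 9 of 10 probe sets were lower, 3 at an unadjusted p under 0.05. Of 14 T and B cell probe sets (9 of 11 genes) 9 were lower, 2 at an unadjusted p under 0.05. Limma called 0 in both lists. Epithelial markers also had lower means in shunt lungs. Those of alveolar type 2 cells averaged 10.41 ± 0.11 in shunt and 10.57 ± 0.12 in control lungs (SD, n = 8 each), with 10 of 10 probe sets lower, 4 of them at an unadjusted p under 0.05. Those of alveolar type 1 cells averaged 11.06 ± 0.11 in shunt and 11.20 ± 0.16 in control lungs, with 7 of 8 lower and 3 at an unadjusted p under 0.05. Those of airway epithelium averaged 6.57 ± 0.14 in shunt and 6.77 ± 0.19 in control lungs, with 6 of 7 lower and 2 at an unadjusted p under 0.05. Limma called 0 probe sets in these 3 lists. An array of this kind gives no level of 0.

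Within groups TIMP1 went with the fibroblast mean at 0.29, the smooth muscle mean at 0.10, the endothelial mean at 0.24, the macrophage mean at 0.06 and the neutrophil mean at 0.30, and against the airway epithelial mean (7 probe sets, 5 of 9 genes) at -0.58. SERPINE2 went with the smooth muscle mean at 0.39 and the fibroblast mean at 0.34, and with the airway epithelial mean at 0.32 (16 arrays each). MMP2 went with the fibroblast mean at 0.60, the endothelial mean at 0.52 and the alveolar type 1 mean at 0.52, and against the macrophage mean at -0.58 and the T and B cell mean at -0.48. The part of cell makeup in the differences was not tested.

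The labels give no sex, and TIMP1 lies on the X chromosome of sheep. The level of XIST, the RNA that coats the inactive X of female cells, ran from 6.41 to 11.00 in shunt and from 6.22 to 10.67 in control lungs, with means of 8.36 ± 1.88 and 8.22 ± 1.98 (SD, n = 8 each, exact two-sided permutation p = 0.909). Within groups XIST went against TIMP1 at -0.26 and against SERPINE2 at -0.45 (16 arrays). With XIST as a covariate the TIMP1 difference was 0.49 (adjusted p = 0.251) and that of SERPINE2 0.29 (adjusted p = 0.260). The array median went against TIMP1 within groups at -0.43 and with SERPINE2 at 0.23. It was lowest in shunt replicate 5, the highest lamb for TIMP1. With each array centred on its median the TIMP1 difference was 0.51 (adjusted p = 0.259 in limma). The mean level of 27 poly-A control probe sets was 4.20 ± 0.01 in shunt and 4.27 ± 0.10 in control lungs (SD, n = 8 each, exact two-sided permutation p = 0.0022), with control replicate 2 the highest at 4.51. It went with TIMP1 within groups at 0.01 and with SERPINE2 at 0.38 (16 arrays). RNA quality was read from 6 control genes with probe sets at either end of the transcript. Their mean 3' level minus 5' level was 1.02 ± 0.13 in shunt and 1.00 ± 0.23 in control lungs (SD, n = 8 each, exact two-sided permutation p = 0.820). It went against SERPINE2 within groups at -0.63 (16 arrays) and with TIMP1 at -0.04, and with it as a covariate the differences were 0.30 for SERPINE2 (adjusted p = 0.198) and 0.49 for TIMP1 (adjusted p = 0.248).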

How the data were processed

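The deposited values are on the log2 scale, with 1 value for each probe set on each array. Per the submitters' processing notes they were summarized by RMA (its release not given in the sources used here), which corrects background and brings all arrays to 1 distribution. Bovine probes read sheep cRNA, and a base that differs between the species can weaken a signal at an unaltered RNA level. No detection calls or scan dates were used, so neither background nor batches could be assessed. Titles were read as 1 lamb per array; should arrays share a lamb, the p-values describe spread between arrays. The number of arrays limits the precision.

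The table held 24128 probe sets, and 112 control probe sets were left out. Limma 3.58.1 in R 4.3.3 compared the groups (lmFit and eBayes, no covariate, two-sided, Benjamini-Hochberg over 24016 probe sets) and was tested on simulated data. Members and lists were chosen with earlier results of these data known. Genes named beside the members were, per list, up to 3 probe sets of smallest p, and per member the 3 most correlated probe sets of other genes. All 9 member symbols had an entry among sheep RefSeq genes. Positions and sequences were not used here. Figures come from matplotlib 3.10.9 (Python 3.11.15).

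Replicate numbers are shared by the groups, but deviations of same-numbered lambs correlated from -0.26 to 0.22, above 0.1 in 2 of 8, and the numbers were not taken as pairs. Alternatives were a replicate block, removal of dim probe sets, other scalings, array weights, another prior, covariates, 1 probe set per gene, a threshold of 0.10 and each array left out.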

Additional observations from a re-analysis of the deposited data

How the results depend on the processing

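Members past the threshold numbered 0 in the fit reported, in all 11 alternatives and in all 16 fits with 1 array left out. The unadjusted limma p stayed under 0.05 in 16 of those 16 fits for the brighter TIMP1 probe set, in 10 for the dimmer and in 12 for SERPINE2. In the other alternatives it did so in 10 of 10, 9 of 9 and 9 of 10. The exception was SERPINE2 after cyclic loess, at 0.0575. Other members fell under 0.05 in single fits. PLAT, lower in shunt lungs, did so with the replicate block (0.0201), and TIMP3 with array weights (0.0478). With 1 array left out TIMP3 did so in 1 fit (0.0430), and so did the dimmest MMP14 probe set, lower in shunt lungs, in 1 fit (0.0374). With 1 array left out the brighter TIMP1 difference ran from 0.36 to 0.57 and that of SERPINE2 from 0.23 to 0.35. The protease median ran from -0.12 (without control replicate 1) to -0.0385 (without shunt replicate 1) and the inhibitor median from 0.0961 (without control replicate 3) to 0.19. The pair shifts kept their sign in those fits except MMP2 minus TIMP2, from -0.0641 to 0.0168. MMP14 minus TIMP2 was smaller after quantile normalization again (-0.0307) and cyclic loess (-0.0326), as was MMP14 minus TIMP3 (-0.155 and -0.156).

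The count of all probe sets called was 17. It was 0 with a replicate block, although no pairing was found, 10 after quantile normalization again, 26 with centred arrays, 45 with array weights, 28 with the 3' minus 5' covariate, 8 with 1 probe set per gene (over fewer features) and 55 at a threshold of 0.10, where 1 substrate probe set (COL4A1) passed. With 1 array left out it ran from 6 to 75, with 75 without shunt replicate 1, 33 without control replicate 6 or 8, and 6 to 11 without control replicate 1, 3, 5 or 7 or shunt replicate 2, 3, 5, 6 or 8. The causes were not tested.

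Signs turned for members near 0. MMP2 was at 0.0227 with centred arrays, 0.0563 with array weights, 0.0090 with the XIST covariate and 0.0147 with the 3' minus 5' covariate. The brightest TIMP2 probe set was at -0.0171 after quantile normalization again and -0.0086 after cyclic loess. The middle MMP14 probe set was at 0.0044 after quantile normalization again, 0.0107 after cyclic loess and 0.0157 with array weights. With 1 array left out MMP2 ran from -0.0465 to 0.0577, PLAUR from -0.0190 to 0.0453, the brightest TIMP2 probe set from -0.0229 to 0.0596, the dimmest from -0.0503 to 0.11, and the middle MMP14 probe set from -0.0632 to 0.0037. The dimmer MMP14 probe sets lie where signal over background is unknown.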

Other observations

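Each of 40 sets of values (14 member probe sets and 6 pairs in both groups) was searched for a lamb far from the others of its group by Dixon's ratio. No lamb passed its 95% critical value for groups of 8, where chance would give about 2 sets. The closest was control replicate 2 with the dimmest MMP14 probe set, at 6.67 against 6.20 for the next control (ratio 0.512).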
